A study of Rattus norvegicus with 18 samples.

Results

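Primary hepatocytes of the rat, which carry out most of the liver's metabolism and were grown here as short-term cultures, were exposed to DDEB at 300 µM for 24 h and compared with hepatocytes that received the solvent DMSO and are labelled VC_2. The 3 DDEB arrays and the 3 VC_2 arrays were chosen by their sample titles from the 18 arrays of the study. The other arrays hold the compounds DDMB, CDMB and CDEB at the same dose and time and a further DMSO group, VC_1, with 3 arrays each. The labels give DDEB only as a code, and the title, which names p-dialkoxy chlorobenzenes, states that modes of action were compared. All cells were cryopreserved hepatocytes of male Sprague Dawley rats (KaLy-Cell), all were precultured for 24 h before exposure, and 100 ng of total RNA was used for each array. DDEB was set against VC_2 because these groups were hybridised on a chip lot of their own, per the design text. That text calls the 3 cultures of a condition independent experiments, but no label says whether more than 1 animal was used. The p-values therefore reflect how far cultures varied. Their spread was estimated over all 18 arrays, not from DDEB and VC_2 alone.

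Fatty acids reach the liver cell as fuel and as signals. PPARalpha, a nuclear receptor that binds fatty acids and many synthetic chemicals, pairs with RXR on DNA and switches on the genes that hydroxylate the fatty acid tail (the Cyp4a enzymes), shorten the chain in peroxisomes and burn it in mitochondria, and in rodent liver this set of genes is among the most inducible known. CAR and PXR, related receptors of the same tissue, switch on drug-metabolising enzymes such as those of the Cyp2b and Cyp3a families. The genes below are described by these roles.

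Hepatocyte markers were measured on every array. All 11 hepatocyte marker genes examined, among them those of albumin (Alb), transthyretin (Ttr), the urea cycle enzyme Cps1 and the liver transcription factor Hnf4a, lay well above background on all 6 arrays. Alb ranged between 8.88 and 9.00 with DDEB and between 8.70 and 8.95 with DMSO, on the log2 scale relative to the 75th percentile of the array's signal that is used throughout. Of the markers of Kupffer cells, 4 of 14 were bright enough to be tested, and the corresponding numbers were 5 of 12 for endothelial, 9 of 13 for stellate, 3 of 9 for bile duct, 3 of 12 for lymphoid, 0 of 7 for neutrophil and 3 of 6 for erythroid cells. By limma 0 of these 27 genes were called, and 6 had an unadjusted p under 0.05, against 15.6% of all genes tested. Of the 6, 3 were stellate, 1 lymphoid and 2 erythroid. Summed over the tested Kupffer markers, the linear signal relative to the 75th percentile ranged between 10.2 and 13.9 with DDEB and between 10.7 and 14.6 with DMSO. Over the stellate markers it ranged between 7.87 and 11.8 with DDEB and between 7.97 and 12.7 with DMSO. For the lymphoid markers, mostly Cd4, it ranged between 17.3 and 26.0 with DDEB and between 24.7 and 31.9 with DMSO, and for the erythroid markers between 2.62 and 3.57 with DDEB and between 3.56 and 3.74 with DMSO. The lymphoid and erythroid ranges lay lower with DDEB and overlapped at one end. The part of these cell types in the results was not tested. In a culture measured in bulk, fewer cells of a type and less RNA per cell cannot be told apart.

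In the main fit more genes were called higher with DDEB than lower, and most of the changes were small. With quantile normalization the lean was weaker, with 52.4% of 334 calls higher. Of 20204 genes tested, 152 were higher with DDEB (0.752%) and 62 were lower (0.307%), so that 214 were called changed (1.06%) by limma at a Benjamini-Hochberg adjusted p below 0.05. The median size of a called change was 0.49 on the log2 scale, and 22 genes changed by 2-fold or more, 13 up and 9 down. In each of the 214 genes, the 3 DDEB arrays lay on one side of all 3 VC_2 arrays, which was true of 16.6% of all genes tested. This separation largely follows from the calls, which rest on the same values, and is no separate evidence. Testing a gene required readings well above background throughout DDEB or throughout VC_2, and 21 of the 214 met this only through the group where they were higher, so that the filter favoured a difference in them. The other 193 lay above background on all 6 arrays. Without the filter 39169 genes were tested and 223 called, of which 106 were among the 214. Of the called genes, 122 carry a plain gene symbol (91 higher and 31 lower), and the other 92, with log2 changes between -1.83 and 2.92, are counted but not named.

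**Figure D1:**
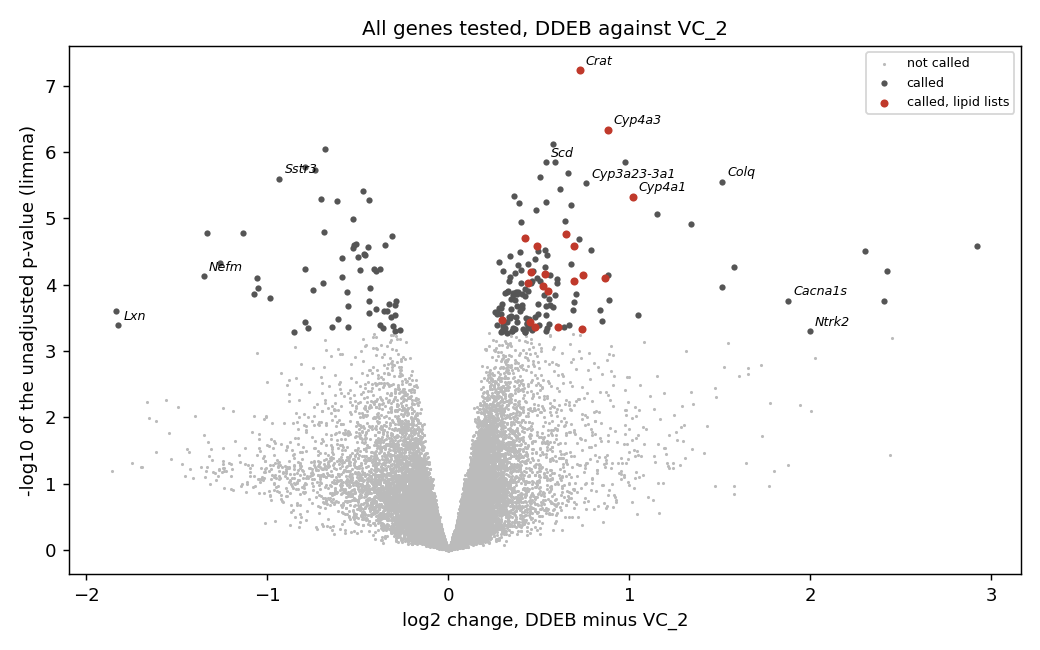
Each point is 1 of the 20204 genes tested, with the log2 change (DDEB minus VC_2) on the x axis and the size of the unadjusted limma p-value (-log10) on the y axis. Red points are the 20 called genes of the lipid lists, all on the right, dark points are the other called genes, and grey points were not called.

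The number of calls depended on how the spread was estimated. DDEB arrays varied more among themselves (median SD 0.179 over genes) than VC_2 arrays (0.133), and the spread of all 6 groups of the study (0.0695 to 0.179) was shared in the fit. With a spread weighted per group 1 gene, Crat, was called (limma adjusted p = 0.0237), and in a fit of the 6 arrays alone 0 were called by limma (smallest adjusted p = 0.250). Before adjustment, 3143 genes (15.6%) had a p under 0.05 when all arrays were fitted. With the replicate number as a block 324 genes were called, of which 183 were among the 214. DDEB replicate 3 was hybridised on a slide of its own, while DDEB replicates 1 and 2 shared a slide with VC_2. Within that slide, which is the same as leaving out DDEB replicate 3, 361 genes were called, 162 of them among the 214. Without DDEB replicate 1 or 2 the count was 133 or 75, and without VC_2 replicate 1, 2 or 3 it was 58, 69 or 74. Quantile normalization gave 334 calls, of which 52.4% were higher, against 71.0% of the 214. A dim spike-in control reached 1.09%, 1.18% and 1.66% of the signal of a bright one on DDEB replicates 1, 2 and 3, against 1.76%, 1.81% and 1.73% on the VC_2 arrays, and the part of this difference in the results was not tested.

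The clearest group of rises lay in the handling of fatty acids. Over 6 lists of fatty acid hydroxylation, peroxisomal and mitochondrial oxidation, thioesterases, fuel choice and lipid storage, 20 of 134 tested genes were higher with DDEB (14.9%, against 0.752% of all genes) and 0 were lower (0.307% of all genes). Their folds ran from 1.23 to 2.03. The lists were chosen with earlier results of these data known, so these shares are a description and no test. In 51 of the 134 (38.1%) all DDEB arrays lay above all VC_2 arrays, against 10.3% of all genes, and in 5 (3.73%) all lay below, against 6.27%. This lean was not particular to the lipid lists. All DDEB arrays also lay above in 8 of 26 heat shock and 10 of 38 proteasome genes, and below in 0 of either. For cholesterol synthesis they lay above in 0 of 25. The median log2 change was 0.17 over these 134 genes and 0.01 over all genes. Within the shared slide 17 of the 20 were called, and the log2 changes of the 20 there lay between 0.31 and 0.98. The lists held 15 and 8 calls without DDEB replicate 1 and 2, and 10, 7 and 7 without VC_2 replicate 1, 2 and 3. They held 15 without the filter on dim probes.

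**Figure D2:**
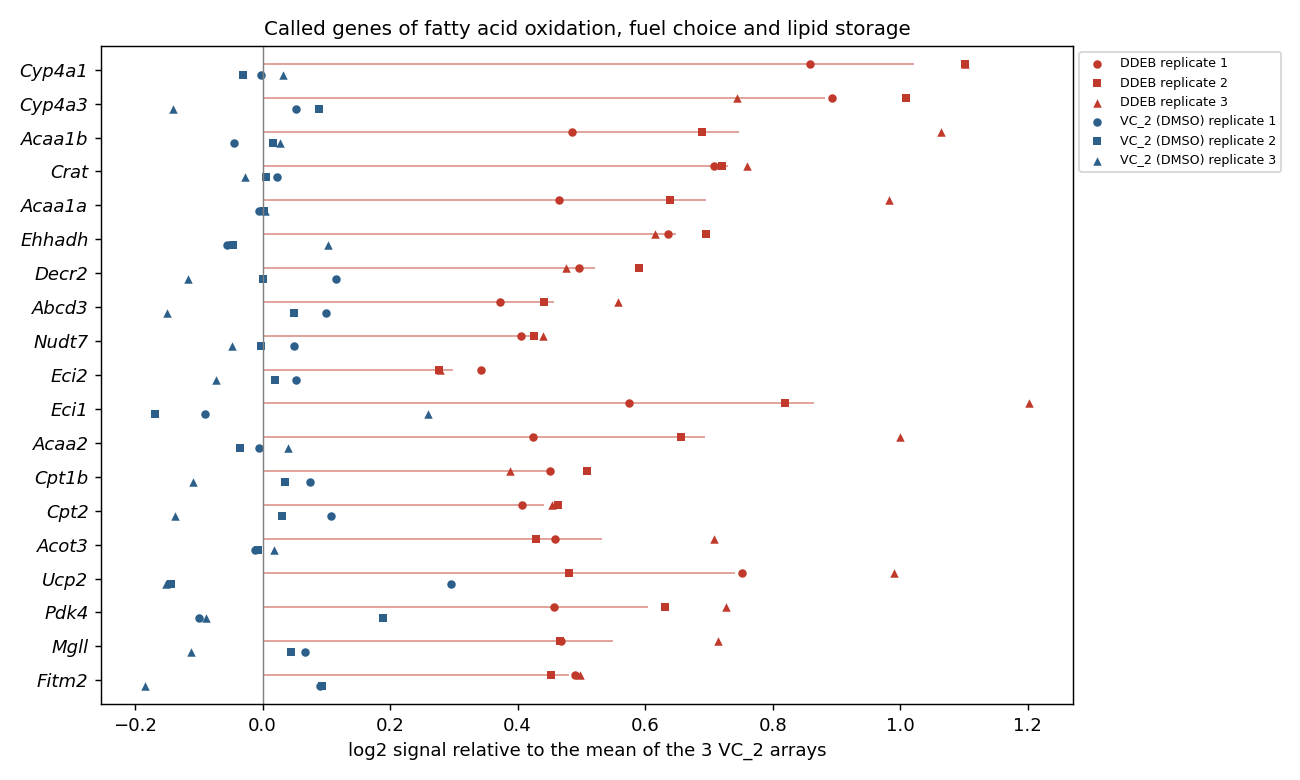
The log2 signal of 19 of the 20 called lipid genes on each of the 3 DDEB arrays (red) and 3 VC_2 arrays (blue), relative to the VC_2 mean of the gene, with lines running to the group means and marker shapes for the replicate number. Every red point lies to the right of every blue point of the same gene, and Cyp4a1 has the largest mean difference (1.02).

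Among the enzymes that hydroxylate the far end of a fatty acid, Cyp4a1 and Cyp4a3 rose. Cyp4a1 stood at 3.50, 3.74 and 3.74 with DDEB, against 2.64, 2.61 and 2.67 with DMSO. The lowest DDEB array thus lay well clear of the highest VC_2 array, and the log2 change was 1.02 ± 0.14 (± SE, n = 3 per group), a 2.03-fold rise (limma adjusted p = 0.00506). Cyp4a3 had 4.80, 4.92 and 4.65 with DDEB, against 3.96, 4.00 and 3.77 with DMSO, again with no overlap (0.88 ± 0.10, limma adjusted p = 0.00411). Of the 12 tested genes of the list, the other 10 were not called and the list's median was -0.01. Cyp4a2, a close relative of Cyp4a3 in the rat, had a log2 change of 0.73 ± 0.34 (limma adjusted p = 0.327) with no overlap of the arrays. Cyp4b1, an enzyme of short and medium chains that also activates protoxicants, had the largest value of the list, 1.19 ± 0.35, and did not pass (limma adjusted p = 0.128). How far the probes tell the near-identical Cyp4a genes apart was not tested.

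Peroxisomal oxidation, which shortens very long and branched chains with hydrogen peroxide as a by-product, held the most calls of any list, 9 higher and 0 lower of 27. The 9 became 5 without DDEB replicate 2, 5 without VC_2 replicate 2 and 4 without VC_2 replicate 3. Ehhadh, the bifunctional enzyme of the middle steps, had -0.38, -0.32 and -0.40 with DDEB, against -1.07, -1.06 and -0.91 with DMSO (0.65 ± 0.10, limma adjusted p = 0.0101), without overlap. The thiolases of the last step, Acaa1a and Acaa1b, had log2 changes of 0.70 ± 0.11 and 0.75 ± 0.13. These thiolase genes are close copies in rodents, and their probes may share signal. Acaa1a stood at 6.17, 6.34 and 6.68 with DDEB, against 5.69, 5.70 and 5.70 with DMSO, so DDEB replicate 3 was the highest and VC_2 was nearly flat.

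Crat, the carnitine acetyltransferase that moves short acyl groups between CoA and carnitine in peroxisomes and mitochondria, gave the smallest p-value of the named genes. It had 5.15, 5.16 and 5.20 with DDEB, against 4.47, 4.45 and 4.42 with DMSO. The arrays of each group agreed closely and the groups lay far apart (0.73 ± 0.07, a 1.66-fold rise, limma adjusted p = 0.00116). Abcd3, a transporter of acyl-CoA into the peroxisome (0.46), Decr2 (0.52) and Eci2 (0.30), which handle unsaturated chains, and Nudt7, a hydrolase of peroxisomal CoA (0.42), were also called. The 16 tested peroxins, which build the organelle itself, gave 0 calls by limma and a median of 0.10. At an unadjusted p under 0.05 there were 3, against 15.6% of all genes tested.

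Crat, Cyp4a3 and Ehhadh are among the 5 lipid genes whose calls held whichever of the 6 arrays was left out, along with Cyp4a1 and Nudt7. The promoter windows of these 3 genes are shown because each contains a stretch close to the direct repeat of AGGTCA with 1 base between, AGGTCANAGGTCA, the sequence that PPARalpha with RXR is known to bind. Each window runs from 250 bases before to 50 bases after the RefSeq gene start in GRCr8 and is written along the gene's strand. It lies at chr3:34087050-34087349 (minus strand) for Crat, at chr5:134352187-134352486 (minus strand) for Cyp4a3 and at chr11:92746159-92746458 (plus strand) for Ehhadh. Capitals mark the 13 bases closest to the repeat. In Nudt7 the closest bases differed from it at 4 positions, and its window is not shown. No window was found for Cyp4a1.
Crat: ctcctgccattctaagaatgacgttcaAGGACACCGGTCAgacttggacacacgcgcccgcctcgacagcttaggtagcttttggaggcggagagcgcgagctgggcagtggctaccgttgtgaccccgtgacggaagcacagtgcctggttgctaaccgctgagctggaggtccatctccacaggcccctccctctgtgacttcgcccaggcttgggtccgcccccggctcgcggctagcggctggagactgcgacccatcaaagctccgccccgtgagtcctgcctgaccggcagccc
Cyp4a3: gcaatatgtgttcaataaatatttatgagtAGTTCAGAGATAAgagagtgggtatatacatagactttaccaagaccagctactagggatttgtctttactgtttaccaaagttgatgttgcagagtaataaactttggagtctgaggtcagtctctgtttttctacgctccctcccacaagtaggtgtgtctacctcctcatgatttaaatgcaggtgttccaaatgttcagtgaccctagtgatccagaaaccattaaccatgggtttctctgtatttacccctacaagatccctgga
Ehhadh: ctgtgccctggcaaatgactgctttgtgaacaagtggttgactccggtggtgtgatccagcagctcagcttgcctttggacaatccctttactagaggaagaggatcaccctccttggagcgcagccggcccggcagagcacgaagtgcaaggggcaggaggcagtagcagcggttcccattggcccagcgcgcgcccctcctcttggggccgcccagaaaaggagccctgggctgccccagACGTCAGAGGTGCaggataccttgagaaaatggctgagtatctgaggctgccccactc
The capitals in Crat differ from the repeat at 2 positions and centre on position -217, counted from the gene start. Those in Cyp4a3 and Ehhadh differ at 3 positions and centre on -214 and -2. A promoter window was found for 16 of the 20 lipid genes that rose. Searched on both strands, a stretch with at most 2 mismatches occurred in 1 of these 16 (6.25%) and in 1263 of all 33469 promoters (3.77%), and one with at most 3 in 3 of 16 (18.8%) and in 24.9% of all promoters. Among the promoters of tested genes the shares were 2.94% with at most 2 mismatches and 20.6% with at most 3. Such near matches are therefore common, and they are a description of the letters, not of binding.

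Mitochondrial oxidation, the main route by which the liver burns fat, had 4 calls, all higher, of 29 tested genes, and a median of 0.19. The 4 became 0 without DDEB replicate 2 or VC_2 replicate 2, and 1 without VC_2 replicate 1 or 3. Eci1, the mitochondrial enoyl-CoA isomerase, had 6.04, 6.28 and 6.67 with DDEB, against 5.37, 5.30 and 5.72 with DMSO. Replicate 3 was highest in both groups, and the groups did not overlap (0.87 ± 0.16, limma adjusted p = 0.0191). Acaa2, the mitochondrial thiolase, rose by 0.69, Cpt2, which rebuilds acyl-CoA inside the mitochondrion, by 0.44, and Cpt1b, the muscle form of the entry enzyme, by 0.45. The liver form Cpt1a, which controls entry of fatty acids, had 0.42, 0.66 and 1.15 with DDEB, against -0.15, 0.18 and 0.37 with DMSO. Its arrays did not overlap, but the replicates were spread over a range as wide as the shift, and it was not called (0.61 ± 0.21, limma adjusted p = 0.191).

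The acyl-CoA thioesterases, which release free fatty acids from CoA, had the highest median of the 40 lists, 0.41 over 10 tested genes, with 1 call. That call was Acot3, at 0.41, 0.38 and 0.66 with DDEB, against -0.06, -0.05 and -0.03 with DMSO (0.53 ± 0.10, limma adjusted p = 0.0183). Cytosolic Acot1 (0.91) and mitochondrial Acot2 (0.50), known PPARalpha targets in rodents, had all DDEB arrays above VC_2 and did not pass (limma adjusted p = 0.150 and 0.116).

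Genes of fuel choice and ketone body synthesis behaved unevenly, with 2 calls of 21. Ucp2, a mitochondrial carrier, had -2.47, -2.74 and -2.23 with DDEB, against -2.92, -3.36 and -3.37 with DMSO (0.74 ± 0.16). Pdk4, the kinase that shuts off glucose oxidation when fat is burnt, had -3.21, -3.04 and -2.94 with DDEB, against -3.77, -3.48 and -3.76 with DMSO (0.60 ± 0.13). Neither gene overlapped, but both calls stood close to the threshold (limma adjusted p = 0.0471 for Ucp2 and 0.0461 for Pdk4) and missed it with the replicate block (0.0570 and 0.0511). Fgf21, a liver hormone of fasting, had a log2 change of -0.04 ± 0.45, and Vnn1, a pantetheinase, one of 0.27 ± 0.13, both with overlapping arrays. Ppara itself, the gene of the receptor, had 3.07, 2.70 and 1.82 with DDEB, against 2.77, 2.63 and 1.52 with DMSO, so that replicate 3 was lowest in both groups and the groups overlapped.

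Lipid storage and uptake gave 2 calls of 35. Mgll, which splits the last fatty acid from glycerol, rose by 0.55 ± 0.11 and Fitm2, which helps to form lipid droplets, by 0.48 ± 0.11 (limma adjusted p = 0.0241 and 0.0461, and 0.0531 and 0.0651 with the replicate block). The secreted lipase inhibitor Angptl4 had 6.32, 6.28 and 6.74 with DDEB, against 5.86, 5.75 and 6.06 with DMSO. The droplet coat protein gene Plin2 had 6.50, 6.51 and 6.49 with DDEB, against 6.22, 6.15 and 5.86 with DMSO. Both sets of arrays were separate, and both genes fell just short of a call (limma adjusted p = 0.0525 and 0.0588), which they gained with the replicate block (0.0341 and 0.0461).

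Genes of fatty acid synthesis lay on both sides of 0. Of 22 tested genes, 10 were above 0 and 6 had an unadjusted p under 0.05 (15.6% of all genes did), and Scd, the desaturase that makes oleate, was the 1 call. It had 6.91, 6.83 and 6.91 with DDEB, against 6.41, 6.35 and 6.28 with DMSO, with tight groups and no overlap (0.54 ± 0.07, limma adjusted p = 0.00411). Pklr, the liver pyruvate kinase, had the lowest value of the list, with 1.11, 0.59 and -0.34 with DDEB, against 2.51, 2.11 and 0.69 with DMSO. Within each replicate number DDEB was lower, but the groups overlapped and the gene was not called (-1.32 ± 0.58, limma adjusted p = 0.289, and 0.0953 with the replicate block). The list's median was -0.01. Cholesterol synthesis had 0 calls of 25 by limma (0 at an unadjusted p under 0.05) and a median of -0.09. Abcg5, one of the paired subunits of the sterol exporter, was the call of the 9 LXR targets, while 0.752% of all genes were called higher. It had -2.24, -2.08 and -2.03 with DDEB, against -2.72, -2.95 and -3.33 with DMSO (0.88 ± 0.16, limma adjusted p = 0.0184).

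Among enzymes of drug metabolism, Cyp3a23-3a1, the main inducible Cyp3a gene of the rat and a PXR target, rose. It stood at 7.86, 8.08 and 7.88 with DDEB, against 7.22, 7.11 and 7.21 with DMSO, with no overlap (0.76 ± 0.10, a 1.69-fold rise, limma adjusted p = 0.00424). It was the 1 call among 34 tested CAR and PXR targets, whose median was 0.15, while 0.752% of all genes were called higher. Cyp2b2, a well-known CAR target of the rat, had 4.86, 5.23 and 4.60 with DDEB, against 5.28, 5.43 and 4.51 with DMSO, and the groups overlapped (-0.18 ± 0.29). The AhR targets gave 0 calls of 11 by limma (1 at an unadjusted p under 0.05). Cyp1a1 had 4.59, 4.22 and 2.55 with DDEB, against 3.97, 3.58 and 1.81 with DMSO, with replicate 3 lowest in both groups. Within each replicate number DDEB was higher, by 0.62, 0.65 and 0.74, but the groups overlapped and the gene was not called (0.67 ± 0.64, limma adjusted p = 0.659, and 0.348 with the replicate block). Cyp1a2 had a log2 change of 0.01 ± 0.23. The 43 tested conjugation enzymes and the 22 constitutive P450 genes had 0 calls by limma, with medians of 0.09 and -0.07. At an unadjusted p under 0.05 there were 12 and 1, against 15.6% of all genes tested.

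Stress programmes gave almost no calls. By limma there were 0 calls in each of the lists of NRF2 targets (32 genes, median 0.13), the integrated stress response (40, median 0.07), chaperones of the endoplasmic reticulum (29, median 0.01) and heat shock (26, median 0.07). At an unadjusted p under 0.05 there were 4, 5, 2 and 7 in the same order, against 15.6% of all genes tested. The quinone reductase gene Nqo1 had a log2 change of 0.07 ± 0.14, the heme oxygenase gene Hmox1 one of 0.40 ± 0.60, and the glutathione synthesis gene Gclc one of 0.15 ± 0.29. The stress factors Atf3 (0.01 ± 0.08) and Ddit3 (0.20 ± 0.20) were not called either. The small heat shock protein gene Hspb1 came nearest, with 4.43, 4.20 and 4.23 with DDEB, against 3.95, 3.89 and 3.64 with DMSO. Its groups were separate (0.46 ± 0.11, limma adjusted p = 0.0609). Of 26 p53 targets, 1 was called higher and 1 lower, against 0.752% and 0.307% of all genes. Plk3, a stress-responsive kinase, rose (0.50) and Rprm, a mediator of arrest in the G2 phase, fell (-1.05). Rprm was tested only through VC_2, where it was higher. Cdkn1a (0.20 ± 0.25) and Mdm2 (0.00 ± 0.07), the best known targets, were not called.

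**Figure D3:**
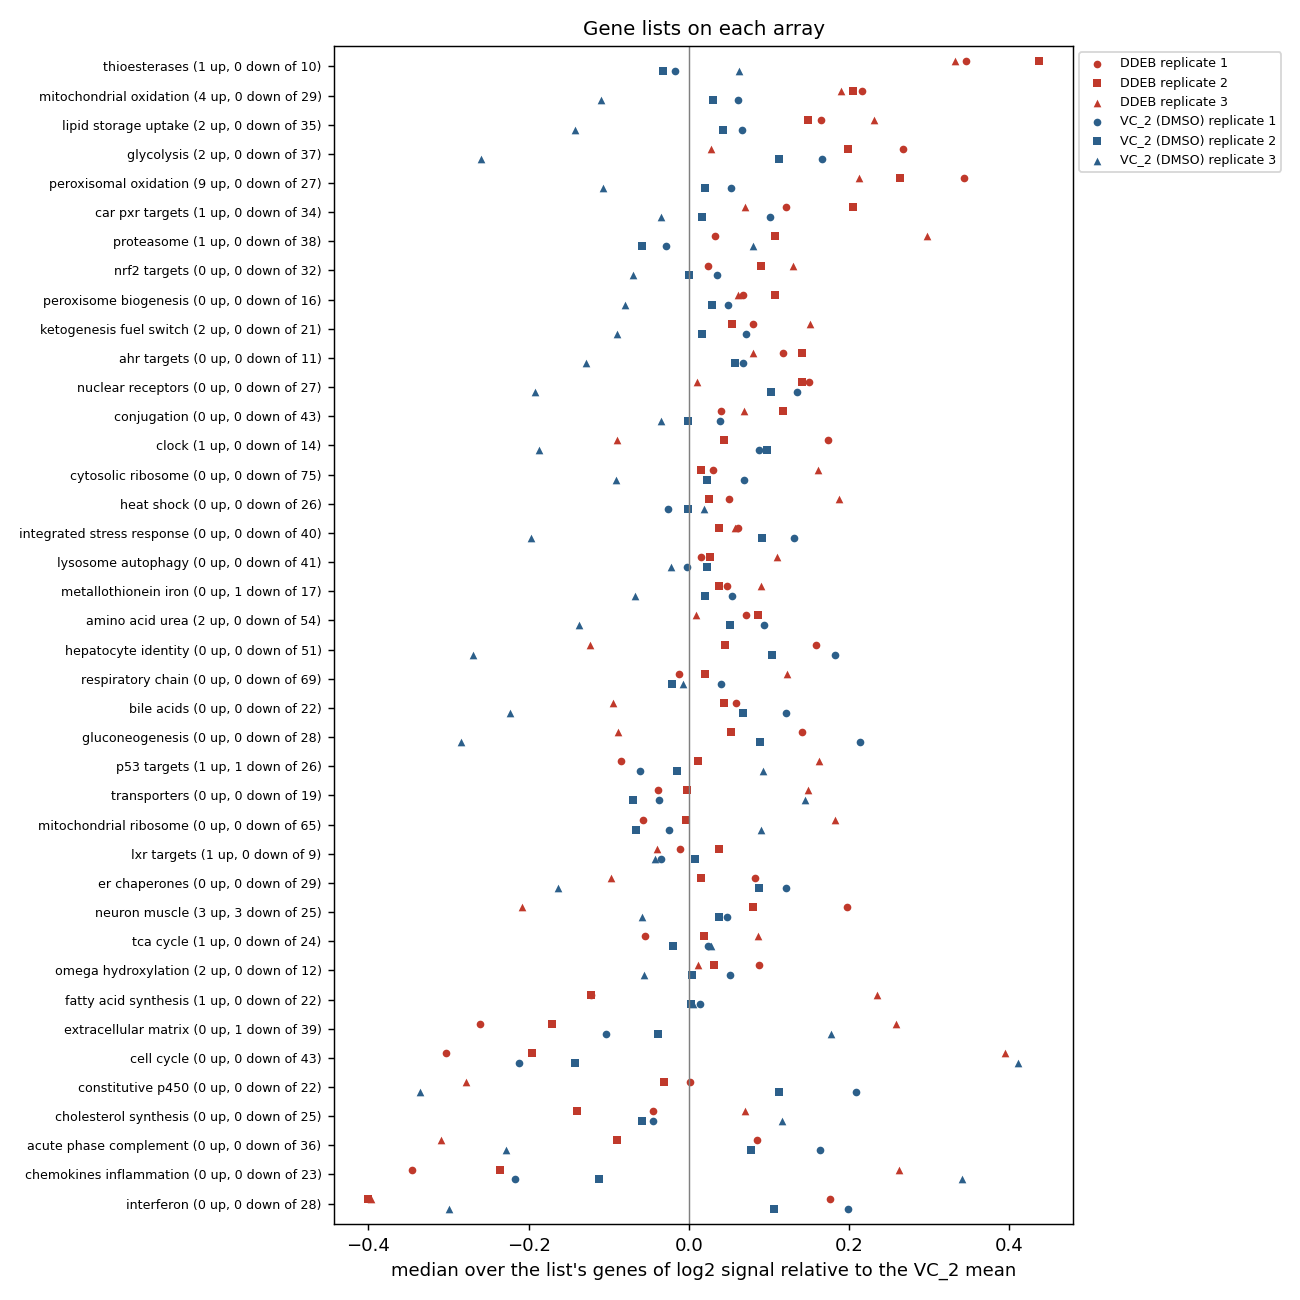
Medians of the 40 gene lists on each array, as log2 signal relative to the VC_2 mean of each gene, for the 3 DDEB arrays (red) and the 3 VC_2 arrays (blue), with the counts of called genes beside each list. The thioesterases (DDEB 0.33 to 0.44) and mitochondrial oxidation (0.19 to 0.22) have all red points to the right of all blue ones, while for the cell cycle and constitutive P450 lists the triangles of replicate 3 lie together, apart from replicates 1 and 2.

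Several lists separated the replicate numbers more than the treatment. The median of the 43 cell cycle genes stood at -0.30, -0.20 and 0.40 on DDEB replicates 1, 2 and 3, against -0.21, -0.14 and 0.41 on the VC_2 replicates, relative to the VC_2 mean. The median of the 22 constitutive P450 genes stood at 0.00, -0.03 and -0.28 with DDEB, against 0.21, 0.11 and -0.33 with DMSO. Replicate 3 of both groups was thus high in one list and low in the other. The interferon list leaned down with DDEB (24 of 28 genes below 0, median -0.23), yet its DDEB arrays stood at 0.18, -0.40 and -0.40, against 0.20, 0.11 and -0.30 with DMSO. Those arrays overlapped, and by limma 0 of its genes were called or had an unadjusted p under 0.05. Of the cell cycle genes 0 were called by limma, with 2 at an unadjusted p under 0.05, against 15.6% of all genes tested.

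**Figure D4:**
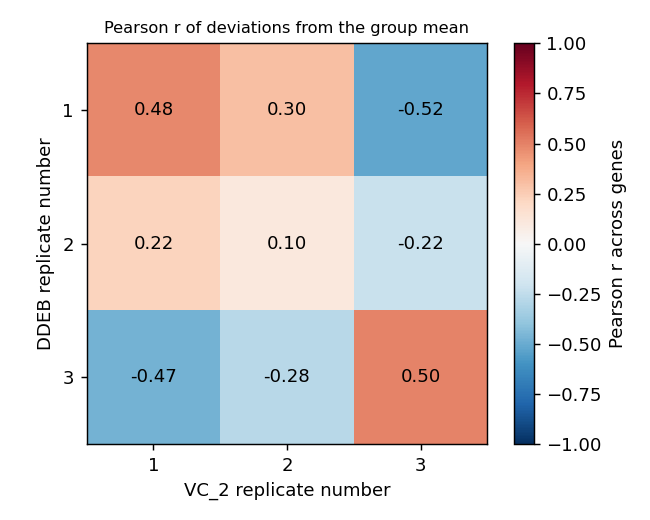
Pearson correlation across the 20204 genes between the deviations of each DDEB array (rows, replicates 1 to 3) and each VC_2 array (columns, replicates 1 to 3) from its group mean, coloured from blue (-1) to red (1). The same-numbered cultures on the diagonal have 0.48, 0.10 and 0.50, and replicates 1 and 3 oppose each other (-0.52 and -0.47). DDEB replicate 2 is closer to VC_2 replicate 1 (0.22), and VC_2 replicate 2 to DDEB replicate 1 (0.30).

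Central metabolism changed at a few steps. For comparison, 0.752% of all genes tested were called higher. Of 37 genes of glycolysis and the hypoxia response, Slc2a1, the glucose transporter GLUT1, rose by 0.41 and Epas1, the hypoxia factor HIF-2alpha, by 0.44 (limma adjusted p = 0.0306 and 0.0432, and 0.0557 and 0.0549 with the replicate block). In amino acid breakdown, the liver glutaminase gene Gls2 (0.34) and Hpd, an enzyme of tyrosine breakdown (0.31, limma adjusted p = 0.0463, and 0.0640 with the replicate block), were called of 54. Aco1, the cytosolic aconitase that also senses iron, rose by 0.56, Nfil3, a repressor of the clock, by 0.38, and Psmd5, an assembly factor of the proteasome, by 0.34. By limma, gluconeogenesis (28 genes), bile acid synthesis and transport (22), the respiratory chain (69), cytosolic ribosomal proteins (75), mitochondrial ribosomal proteins (65), lysosome and autophagy (41), acute phase and complement (36) and the 51 hepatocyte identity genes gave 0 calls, with 6, 2, 6, 3, 4, 9, 7 and 6 genes at an unadjusted p under 0.05 in the same order. Among all genes tested, 15.6% had such an unadjusted p. Cyp7a1, the rate-limiting enzyme of bile acid synthesis, stood at -4.78 on DDEB replicate 3 and at -3.27 on VC_2 replicate 3, far below the other arrays of either group (log2 change -0.85 ± 0.82).

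Of 25 tested genes best known from nerve and muscle, 3 were higher (Colq, Cacna1s and Pcp4l1, against 0.752% of all genes) and 3 were lower (Nefm, Myog and Sstr3, against 0.307%), and the median was 0.01. The list was chosen with earlier results of these data known, so these shares are a description and no test. Cacna1s and Nefm were tested only through the group where they were higher, and among the 20 genes of the list above background on all 6 arrays 4 were called. The 6 calls became 4 without DDEB replicate 1, 4 without VC_2 replicate 1 and 2 without VC_2 replicate 3. Colq, the collagen tail that anchors acetylcholinesterase, had -1.25, -1.40 and -1.76 with DDEB, against -2.65, -2.86 and -3.44 with DMSO. The gap between the groups exceeded the range within either (1.51 ± 0.20, a 2.85-fold rise, limma adjusted p = 0.00424). Ntrk2, the BDNF receptor, and Cacna1s, the skeletal muscle calcium channel, lay well above background on all 3 DDEB arrays and on 0 of 3 VC_2 arrays, and so were tested only through the group where they were higher. Set against the dimmest signal that counted as above background, or the probe's own value where that was higher, Ntrk2 was at least 2.89-fold higher and Cacna1s at least 2.83-fold higher (limma adjusted p = 0.0482 and 0.0282). Osbp2, an oxysterol-binding protein gene, was also well above background on all 3 DDEB arrays and on 0 of 3 VC_2 arrays. Its own VC_2 values were all higher than that dimmest signal. Its 1.85-fold rise is therefore the plain fold of the means and not a minimum (log2 change 0.89 ± 0.18). Tmem117, a membrane protein gene measured above background on 1 of 3 VC_2 arrays, rose by 1.34 ± 0.20 (limma adjusted p = 0.00828). With the replicate block, Cacna1s and Osbp2 missed the threshold (0.0574 and 0.0501).

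Smaller rises were seen in a mixed set of genes whose arrays did not overlap. Pcp4l1, a relative of the Purkinje cell gene Pcp4, rose by 0.79, the splicing factor gene Mbnl3 by 0.71 (limma adjusted p = 0.0245, and 0.0552 with the replicate block) and the lysophosphatidic acid receptor gene Lpar3 by 0.69. The transporter-like gene Mfsd4a rose by 0.66, the transcriptional repressor gene Atxn1 by 0.64, Tgm2, a protein-crosslinking transglutaminase induced by retinoids, by 0.60, and Tmem171 by 0.56.

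The falls were fewer and came from genes of many roles. Sstr3, a somatostatin receptor gene, had -0.33, -0.20 and 0.07 with DDEB, against 0.57, 0.94 and 0.84 with DMSO. The groups were separate, and Sstr3 fell by 0.93 on the log2 scale (SE 0.12, limma adjusted p = 0.00424). Cfap95, a gene of cilia and flagella, had -1.74, -1.55 and -1.77 with DDEB, against -0.85, -1.04 and -0.80 with DMSO (-0.79 ± 0.10). Omd, a small leucine-rich proteoglycan known from bone, had 2.09, 2.13 and 2.03 with DDEB, against 2.78, 2.75 and 2.94 with DMSO (-0.74 ± 0.09). These 3 genes and Cldn1, a tight junction protein (-0.51 ± 0.08), kept their calls with each array left out in turn.

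Dim genes with large falls rest on fewer readings above background, and Lxn, Nefm, Nxnl2 and Rprm were tested only through VC_2, where they were higher. Lxn, a carboxypeptidase inhibitor gene, lay above background on 0 of 3 DDEB arrays and was at least 2.79-fold lower (limma adjusted p = 0.0450). The neurofilament gene Nefm (-1.35 ± 0.24) was above background on 1 of 3 DDEB arrays, Nxnl2, a thioredoxin-like gene of the retina (-1.33 ± 0.21), on 2, and Rprm on 1. Myog, the muscle differentiation factor, was measured on all 6 arrays, with -3.18, -2.93 and -3.62 with DDEB, against -2.16, -2.38 and -2.01 with DMSO (-1.06 ± 0.19, limma adjusted p = 0.0191).

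Among brighter genes that fell were several with known liver or membrane roles. Selenop, the selenium carrier that hepatocytes secrete, had 5.14, 5.30 and 5.17 with DDEB, against 5.56, 5.62 and 5.63 with DMSO (-0.40 ± 0.07, limma adjusted p = 0.0173). Cd302, a C-type lectin receptor gene, had 4.28, 4.30 and 4.21 with DDEB, against 4.89, 4.75 and 4.72 with DMSO (-0.53 ± 0.09). The groups of both genes were separate. The remaining named falls were the myo-inositol transporter gene Slc5a3 (-0.69), the hedgehog ligand gene Ihh (-0.61, limma adjusted p = 0.0393, and 0.0695 with the replicate block), the phospholipase gene Pla1a (-0.59), Smim3 (-0.56), Pbld1 (-0.55), the amino acid transporter gene Slc43a2 (-0.46), the sodium-proton exchanger gene Slc9a9 (-0.45), the mitochondrial aminopeptidase gene Xpnpep3 (-0.44) and Calml4 (-0.40).

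**Figure D5:**
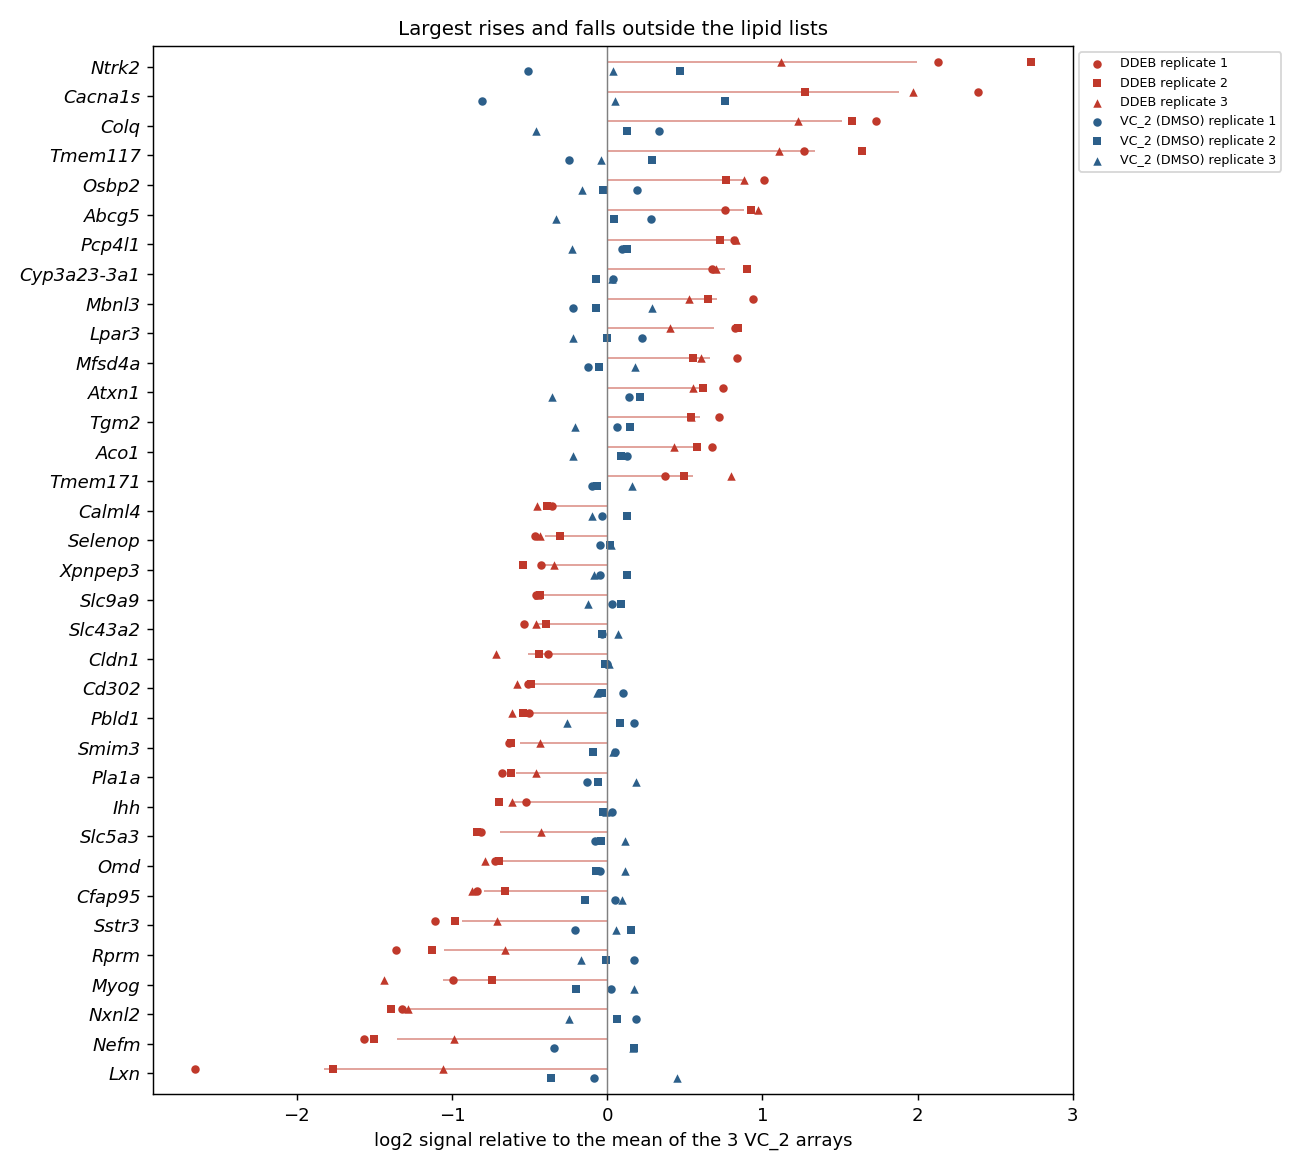
The log2 signal of the named genes with the largest rises and falls outside the lipid lists, on each of the 3 DDEB arrays (red) and 3 VC_2 arrays (blue), relative to the VC_2 mean of the gene, with lines to the group means. No red point overlaps the blue points of its gene, which the choice of these genes required. The widest scatter between replicates is in dim genes such as Ntrk2 and Lxn.

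A further comparison asked whether the effect of DDEB differed from that of each other compound, each over the DMSO group of its own chip lot. All CDMB and CDEB arrays lay on a slide that held no DMSO array, while VC_1 lay on another slide. By limma, 0 of 20204 genes differed between DDEB and DDMB (0%, smallest adjusted p = 0.155), 0 between DDEB and CDMB (0%, smallest adjusted p = 0.355) and 2 between DDEB and CDEB (0.0099%). At an unadjusted p under 0.05 the counts were 1196 (5.92%), 1171 (5.80%) and 1340 (6.63%). The named one was Sat2, a diamine acetyltransferase gene, with a log2 change of 0.06 with DDEB and -0.45 with CDEB. Their difference was 0.52 (SE 0.07, limma adjusted p = 0.0417). The other carries no plain symbol, with 0.50 for DDEB and -0.77 for CDEB (difference 1.27, limma adjusted p = 0.00646). With normexp background its difference was 0.10. The counts were close to 0 with other arrays and settings too, reaching at most 5.

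The genes called for DDEB mostly pointed the same way with the other compounds, at smaller sizes. Of the 214, 186 had the same sign with DDMB (86.9%), 190 with CDMB (88.8%) and 186 with CDEB (86.9%), against 62.5%, 59.3% and 57.8% of all genes tested. The genes were selected for a large effect of DDEB, so smaller values elsewhere follow in part from the choice and were given no test.

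For single lipid genes the side-by-side values fell into different orders. The log2 change of Cyp4a1 was 1.02 with DDEB, 0.16 with DDMB, 0.14 with CDMB and 0.79 with CDEB. The 95% interval of the difference ran from 0.43 to 1.29 for DDEB minus DDMB and from 0.45 to 1.31 for DDEB minus CDMB, and included 0 for DDEB minus CDEB (-0.20 to 0.67). Ehhadh had 0.65 with DDEB, 0.07 with DDMB, -0.11 with CDMB and 0.50 with CDEB, and Scd had 0.54, 0.17, 0.21 and 0.56 in the same order of compounds. For Crat it was DDMB that came near, with 0.73 for DDEB, 0.57 for DDMB, 0.22 for CDMB and 0.29 for CDEB (interval of DDEB minus DDMB -0.06 to 0.37). None of these differences passed the adjustment over all genes (lowest limma adjusted p 0.358 for the 20 lipid genes that rose).

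Outside lipid metabolism the pattern again varied by gene. Cyp3a23-3a1 had 0.76 with DDEB, 0.53 with DDMB, 0.20 with CDMB and 0.23 with CDEB. Sstr3 had -0.93 with DDEB, -1.36 with DDMB, -0.54 with CDMB and -0.09 with CDEB, and the interval for DDEB minus CDEB ran from -1.22 to -0.47. Cyp4b1 had 1.19 with DDEB, 2.28 with DDMB, 0.06 with CDMB and 0.04 with CDEB. Myog fell with DDEB (-1.06) and had 0.15 with DDMB, 0.28 with CDMB and 0.11 with CDEB, with intervals of the difference that ended below 0 for all 3, at -0.62, -0.75 and -0.59. None of these differences passed either. The chip lot and the compound cannot be told apart in these comparisons beyond what the separate DMSO groups allow. For CDMB and CDEB, whose slide held no DMSO array, the slide and the compound cannot be told apart at all.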

How the data were processed

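Each culture was hybridised alone to 1 Agilent array with Cy3. The scanner values are spot intensity from Agilent Feature Extraction 10.7.1.1, background-subtracted and detrended within the array, per the file headers. On the 6 arrays, 61.0% to 64.3% of the spots counted as well above background, 0 probe spots were saturated, and the 75th percentile of intensity lay between 421 and 632. The authors' deposited table of this lot holds normalized signal on a linear scale. How it was normalized is not stated by any source used here, and it served as an alternative. The headers name build rn4, no coordinates of which are printed.

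Unflagged spots of a probe were averaged on the log2 scale, less the array's 75th percentile. Of 45598 probes, 435 with all spots flagged on an array were left out, and 21109 were named through their accession in the RefSeq gene table (GRCr8). A probe was kept when well above background on all 3 arrays of DDEB or VC_2 (23696 probes), and the brightest kept probe stood for a gene (20204 genes, 10396 with a plain symbol). Of 32 called genes with several kept probes, 31 had all probes on one side. limma 3.58.1 in R 4.3.3 (lmFit, eBayes) fitted the means of 6 groups over 18 arrays (12 residual degrees of freedom), with Benjamini-Hochberg adjustment over all genes. Errors are standard errors unless named, and intervals are at 95%. The number of arrays limits the precision. The fit was tested on simulated data.

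Named genes are the 25 largest rises and 20 largest falls among called genes with a plain symbol and separate groups, called list members, the 2 largest changes of each list, a fixed set, and the largest called differences between compounds. No probe is named Cyp2b1. Some genes that the rule picks are not reported here. The members, the 40 lists and the tests were chosen with earlier results of these data known, so lists are described by counts and medians without a test. Promoter sequences are RefSeq's, in GRCr8.

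Same-numbered DDEB and VC_2 arrays deviated from their group means together (Pearson r across genes 0.478, 0.104 and 0.496, each over 0.1). The replicate number was therefore taken to pair the cultures, from the data and not from the labels. DDEB replicate 2 correlated more with VC_2 replicate 1 (0.223), and VC_2 replicate 2 more with DDEB replicate 1 (0.304). These values thus do not single out the pairing of replicate 2. The block is given where it changes a call.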

Additional observations from a re-analysis of the deposited data

Results flagged for a closer look

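Sat2, which encodes a diamine acetyltransferase, stood out because the effects of DDEB and CDEB differed in a test of the difference itself. The 3 DDEB arrays had 0.67, 0.66 and 0.76, against 0.63, 0.62 and 0.65 on the VC_2 arrays, a log2 change of 0.06 ± 0.05. The log2 change with CDEB, over VC_1, was -0.45, and CDEB and VC_1 lay on different slides. The difference, DDEB minus CDEB, was 0.516 on the log2 scale (interval 0.36 to 0.67, limma adjusted p = 0.0417). It was 0.50 with normexp background and did not pass (limma adjusted p = 0.337), nor with weights per group (0.118). Without 1 array the adjusted p lay between 0.0227 and 0.217, and the call stood in 1 of 6 such fits, that without DDEB replicate 3.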

How the results depend on the processing

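For DDEB against VC_2, 214 genes were called. The count was 0 with the 6 arrays alone, 1 with weights per group, 82 with normexp background, 334 with quantile normalization, 0 in the deposited table (also of the 6 arrays alone), 361 with slide as a fixed block, 324 with the replicate block, and, in settings chosen after seeing the data, 51 with the block and weights per group and 0 with the block in the 6 arrays alone. Without the filter on dim probes it was 223, with 106 shared, among 39169 genes tested. Leaving out 1 array gave between 58 and 361 calls: 133, 75 and 361 without DDEB replicate 1, 2 and 3, and 58, 69 and 74 without VC_2 replicate 1, 2 and 3. Of the called genes, 71.0% were higher, against 52.4% with quantile normalization and 61.2% within the slide, while the median of all genes was 0.01, -0.01 with quantile normalization and 0.04 with normexp. In the 6 lipid lists, 20 calls became 15, 8 and 18 without DDEB replicate 1, 2 and 3, 10, 7 and 7 without VC_2 replicate 1, 2 and 3, 1 with weights per group and 0 with the 6 arrays alone. The cause of these shifts was not tested. The count of differences from DDMB, 0, was 1 with quantile normalization and 0 or 1 without an array, that from CDMB, 0, lay between 0 and 3 without an array, and that from CDEB, 2, was 1 with weights per group, 0 with normexp background and between 1 and 5 without an array. None of the 63 called genes that the naming rule picked changed direction under the 19 settings. Without 1 array this outcome was fixed, since the groups of these genes did not overlap. Settings that altered only the spread left the size of the change as it was.

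Besides the genes given with their blocked values, the replicate block changed no call among the genes named in the text. Normexp was run on the median spot signal in place of the mean. For a gene dim throughout 1 group, the fold of its means is given, which leaves out sampling error.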
